A study of Sus scrofa with 6 samples.

Results

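This account follows 8 genes grouped as macrophage receptors and products of lymphoid tissue: the scavenger receptors MSR1 and MARCO, the scavenger receptor relative CD163L1, the sialic acid receptor SIGLEC-1, the complement receptor VSIG4, and 3 products that are not surface receptors, CD5L, ACP5 and APOE. The values of CD163L1 followed T-cell genes and go against its place in this group. The group is 8 of the 4122 genes listed in the tables, and each was taken by its symbol. They were chosen by hand with their ratios of knockout to wild-type FPKM in these same libraries known, so their levels and ratios are given as descriptions. Lymph node, spleen and thymus of RAG2 biallelic knockout pigs were compared with the same tissues of wild-type littermates, all aged 3 months. The series title describes the pigs as immunodeficient through the loss of a single amino acid. Each of the 6 combinations of tissue and genotype holds 1 library, and the number of animals behind it is not given in the sources used here, so no difference has a replicate check.

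Macrophages of lymphoid organs take up particles, dying cells, modified lipoproteins and microbes through scavenger receptors. They form subsets by place: sinus and marginal zone macrophages meet lymph or blood, red pulp macrophages of the spleen clear red cells, and cortical macrophages of the thymus clear thymocytes that fail selection. MARCO and SIGLEC-1 are known from marginal zone and sinus macrophages, VSIG4 from tissue-resident macrophages that clear complement-coated particles, and CD5L from macrophages under the control of the lipid-sensing liver X receptor.

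Levels are given in FPKM, a count of fragments scaled for transcript length and for library depth. Fragments assigned to listed genes numbered between 1922562 and 2514982 in the lymph node and spleen libraries, and 2541724 and 2397922 in the wild-type and knockout thymus. A gene counted as measured with at least 1 FPKM in at least 1 library of the tissue, which all 8 genes met in all 3 tissues. A call of higher or lower needed a log2 ratio (knockout over wild type, 1 FPKM added to both) of at least 1 in either direction. In each pair of values for a tissue, wild type is given before the knockout. Folds were computed from scaled fragments, and their 95% Clopper-Pearson intervals speak of counting error alone. RAG2 stood at 606 FPKM in the wild-type thymus and 1072 FPKM in that of the knockout and at 1.16 FPKM or less in the other 4 libraries. Its transcript level does not check the genotype. RAG-1 was at 3435 and 7134 FPKM in thymus and at 10.1 FPKM or less elsewhere. The lymph node chemokine CCL21 was highest in the lymph node libraries (2438 and 1754 FPKM), and the red-cell gene HBB in the spleen libraries (41406 and 18970.2 FPKM). In these bulk tissues, fewer cells of a type and less RNA per cell cannot be told apart.

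MSR1 (chromosome 17, 3859903 to 3939612 in Sscrofa11.1) encodes the class A scavenger receptor that binds modified lipoproteins and bacterial surfaces. Its level was 77.8 FPKM in the wild-type lymph node and 236 FPKM in that of the knockout, 321 and 45.2 FPKM in spleen, and 19.6 and 134 FPKM in thymus. The wild-type spleen was thus the highest of the 6 libraries, and the knockout spleen was the lowest but for the wild-type thymus. MSR1 was 3.05-fold higher in the knockout lymph node (interval 2.67 to 3.49, from 298 and 950 fragments) and in thymus the knockout was 6.83-fold higher (5.39 to 8.76, from 79 and 553 fragments). In spleen it was 7.06-fold lower (6.09 to 8.21, from 1263 and 209 fragments). Its log2 ratios of 1.59, -2.80 and 2.71 in lymph node, spleen and thymus met the size threshold in opposite directions.

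MARCO (chromosome 15, 24502935 to 24541286), the collagenous receptor of marginal zone and medullary macrophages that binds bacteria, was above all a lymph node gene. It reached 876 FPKM in the wild-type lymph node and 1897 FPKM in that of the knockout, where it ranked 120th and 69th of the 4122 genes. In spleen it was at 131 and 129 FPKM, and in thymus at 14.4 and 1.39 FPKM. The lymph node value was 2.17-fold higher in the knockout (2.09 to 2.26, from 3526 and 8016 fragments), a log2 ratio of 1.11 close to the threshold. The spleen libraries had 541 and 624 fragments, a ratio of 0.988 with an interval of 0.879 to 1.11. In thymus MARCO was 10.4-fold lower in the knockout (4.52 to 29.5), with 61 and 6 fragments. The spleen, where MSR1 was 7.06-fold lower, therefore held MARCO at a ratio whose interval includes equal levels, and the thymus held MSR1 and MARCO in opposite directions.

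CD163L1 (chromosome 5, 63488674 to 63514536) belongs to the scavenger receptor cysteine-rich family, and the RefSeq gene table of Sscrofa11.1 gives WC1 as its other name. WC1 molecules are known in cattle and pigs as surface coreceptors of gamma-delta T cells, and close copies exist in that family, so the assignment of fragments to this gene is uncertain. Its level was 7.26 FPKM in the wild-type lymph node, 2.93 FPKM in the wild-type spleen and 45.0 FPKM in the wild-type thymus, from 41, 17 and 267 fragments. All 3 knockout libraries had 0 fragments. Set against a floor of 3 fragments per knockout library, with the wild-type count taken as exact, the level was at least 14.3-fold lower in the knockout lymph node, at least 6.62-fold lower in spleen and at least 91.2-fold lower in thymus. The 95% interval of the fragment ratio, which counts the error of both libraries, ends nearer to equal levels, at 11.1-fold, 4.82-fold and 73.6-fold lower. The count of 0 allows up to 0.508, 0.443 and 0.494 FPKM in these libraries. Its log2 ratios were -3.05, -1.98 and -5.52, the last being the 4th lowest of 2908 genes measured in thymus. With a pseudocount of 5 the spleen ratio of -0.67 no longer met the threshold. With a minimum of 5 FPKM the gene was not measured in spleen.

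In the tables for these 6 libraries the level of CD163L1 was nearest to those of CD28, CD8A and CD27, which are T-cell genes, as described below. CD28 ran from 36.8 FPKM in the wild-type thymus to 0.363 FPKM in the knockout thymus. CD8A ran from 534 to 11.4 FPKM in the same libraries. In the list of T-cell genes, 9 of 9 members were lower in the knockout lymph node, 4 of 9 in the spleen and 6 of 9 in the thymus. Among all measured genes the shares called lower were 10.3, 10 and 10.9%. No measured gene of the pan-macrophage list was called lower in any tissue. Among the other members, however, MSR1, SIGLEC-1, ACP5 and APOE were called lower in spleen and MARCO in thymus. The gamma-delta genes TRDC, TRGC1 and SOX13 were not analysed here, and which cells carried CD163L1 was not tested.

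CD5L (chromosome 4, 92394535 to 92412146) encodes a secreted protein of the same cysteine-rich family, made by macrophages, that binds to immunoglobulin M in plasma. Its level was 152 FPKM in the wild-type lymph node and 456 FPKM in that of the knockout, 365 and 1320.2 FPKM in spleen and 49.3 and 155 FPKM in thymus. In every tissue the knockout library was the higher of the pair, and the knockout spleen was the highest of all 6. The folds were close to each other: 3.01 in lymph node (2.81 to 3.22), 3.63 in spleen (3.48 to 3.79) and 3.15 in thymus (2.80 to 3.55). These rest on 371 to 11375 fragments per library. In the knockout spleen CD5L was the 103rd gene of 4122 by FPKM, against 276th in the wild-type spleen.

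SIGLEC-1 (chromosome 17, 31994505 to 32021239; sialoadhesin, SIGLEC1 in the current annotation) is the sialic acid receptor of sinus and marginal metallophilic macrophages, and it is known to be induced by interferon. Its level was 115 FPKM in the wild-type lymph node and 65.8 FPKM in that of the knockout, 60.1 and 3.75 FPKM in spleen and 2.47 and 2.54 FPKM in thymus. The knockout spleen was close to the level of the thymus libraries. In spleen SIGLEC-1 was 16.01-fold lower in the knockout (12.5 to 20.9, from 905 and 66 fragments), the 21st lowest log2 ratio of 2849 genes. In lymph node it was 1.74-fold lower (1.61 to 1.88, from 1680 and 1009 fragments), with a log2 ratio of -0.79 that missed the threshold. In thymus, with 38 and 40 fragments, the ratio was 1.03 (0.642 to 1.65).

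Against 8.88% of all measured genes, 13 of 19 measured interferon-response genes were higher in the same knockout spleen. Among them were the chemokines CXCL11 (log2 ratio 4.01, from 1 and 27 fragments) and CXCL9 (3.61) and the antiviral protein BST2 (2.93, from 3 and 32 fragments). The list median there was 1.69, against -0.0159 for all genes. In lymph node 7 of 19 members were higher and 0 lower (median 0.55), and in thymus 7 were higher and 1, MX1, was lower (median 0.33). Of all measured genes, 15.3 and 15.2% were called higher and 10.3 and 10.9% lower in these 2 tissues. The counting interval excluded equal levels for 5 of the 7 higher genes in each. The sign of SIGLEC-1 in spleen was thus opposite to that of the interferon list.

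VSIG4 (chromosome X, 52175601 to 52198635) is the macrophage receptor for fragments of complement C3. Its level was 89.8 FPKM in the wild-type lymph node and 528 FPKM in that of the knockout, 2.495 and 19.9 FPKM in spleen and 38.8 and 168 FPKM in thymus. The spleen libraries were the lowest, and the knockout was higher in each tissue. The folds were 6.17 in lymph node (5.24 to 7.32, from 165 and 1065 fragments), 7.71 in spleen (3.07 to 24.9, from 5 and 45 fragments) and 4.48 in thymus (3.49 to 5.80, from 77 and 353 fragments). The wild-type spleen value rests on 5 fragments, and the width of its interval shows this. Its ligand gene C3 was higher in the knockout spleen (289 and 1426 FPKM, log2 ratio 2.30) and short of a call in lymph node (525 and 578 FPKM) and thymus (115 and 121 FPKM).

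ACP5 (chromosome 2, 70206159 to 70209855), the tartrate-resistant acid phosphatase of macrophage and osteoclast lysosomes, stood at 429 FPKM in the wild-type lymph node and 468 FPKM in that of the knockout. It was at 506 and 46.8 FPKM in spleen and at 239 and 612 FPKM in thymus. The knockout spleen was the low library, and the other 5 lay between 239 and 612 FPKM. ACP5 was 10.5-fold lower in the knockout spleen (7.73 to 14.5, from 421 and 47 fragments), the 27th lowest of 2849 log2 ratios. In thymus the knockout was 2.56-fold higher (2.17 to 3.02, from 203 and 532 fragments). In lymph node the ratio was 1.12 (0.965 to 1.29, from 349 and 407 fragments).

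APOE (chromosome 6, 51373113 to 51375333), the lipid carrier that macrophages secrete and that takes up cholesterol from them, had a like pattern at a higher depth. Its level was 718 FPKM in the wild-type lymph node and 1155 FPKM in that of the knockout, 398 and 143 FPKM in spleen and 393 and 892 FPKM in thymus. The knockout spleen was again the lowest of the 6. APOE was 2.76-fold lower there (2.48 to 3.08, from 1119 and 473 fragments) and 2.27-fold higher in the knockout thymus (2.12 to 2.44, from 1128 and 2625 fragments). In lymph node it was 1.62-fold higher (1.53 to 1.71, from 1967 and 3327 fragments), with a log2 ratio of 0.68 that missed the threshold.

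**Figure D1:**
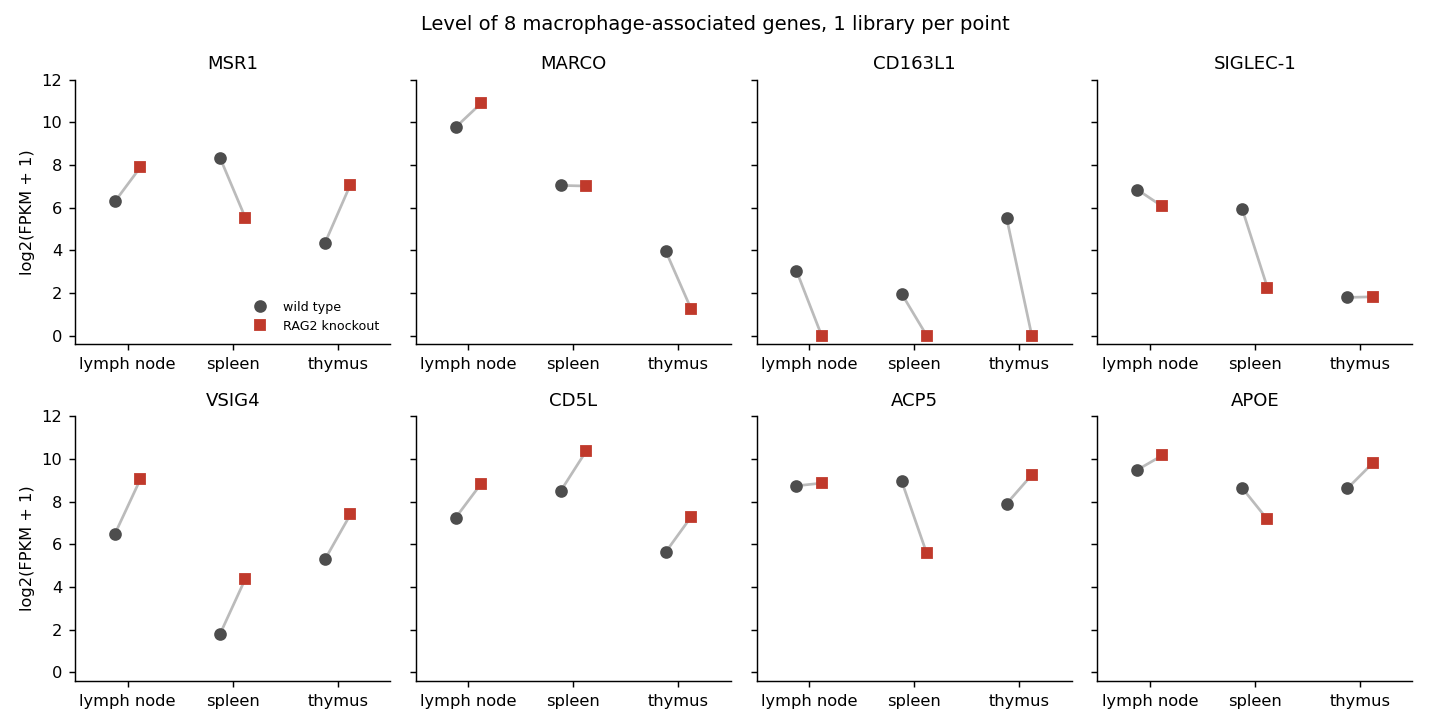
Level of each of the 8 genes as log2(FPKM + 1) in lymph node, spleen and thymus, with 1 library per point (circles wild type, squares RAG2 knockout, grey lines joining the pair of a tissue). VSIG4 and CD5L are higher in the knockout in all 3 tissues, CD163L1 is at 0 in all 3 knockout libraries, and MSR1, ACP5 and APOE are lower in the knockout spleen only.

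By tissue, the knockout lymph node had 4 of the 8 genes higher and 1 lower, 2 were higher and 5 lower in spleen, and 5 were higher and 2 lower in thymus. Among all measured genes, 15.3% were called higher and 10.3% lower in lymph node, 8.88% and 10% in spleen, and 15.2% and 10.9% in thymus. Since the genes were picked with these ratios known, nothing is read from the difference. The median log2 ratio of the 8 genes was 0.90 in lymph node, -1.72 in spleen and 1.27 in thymus, and that of all measured genes was -0.00456, -0.0159 and -4.72e-05. VSIG4 and CD5L were called higher and CD163L1 lower in all 3 tissues. MSR1, ACP5 and APOE were called in opposite directions in spleen and thymus, and MARCO in opposite directions in lymph node and thymus. MSR1 was also called in opposite directions in lymph node and spleen. Of the 2671 genes measured in all 3 tissues, 4.46% were called in opposite directions in at least 1 pair of tissues. With a threshold of 2, 1 of the 8 genes was higher in lymph node, 1 in spleen and 2 in thymus, against 5.6, 2.77 and 3.78% of all measured genes, and 3 were lower in spleen, against 2.67%. CD163L1 in lymph node (-3.05) and thymus (-5.52) and MARCO in thymus (-2.69) were also lower at this threshold. The share of all genes lower by it was not computed for those 2 tissues.

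**Figure D2:**
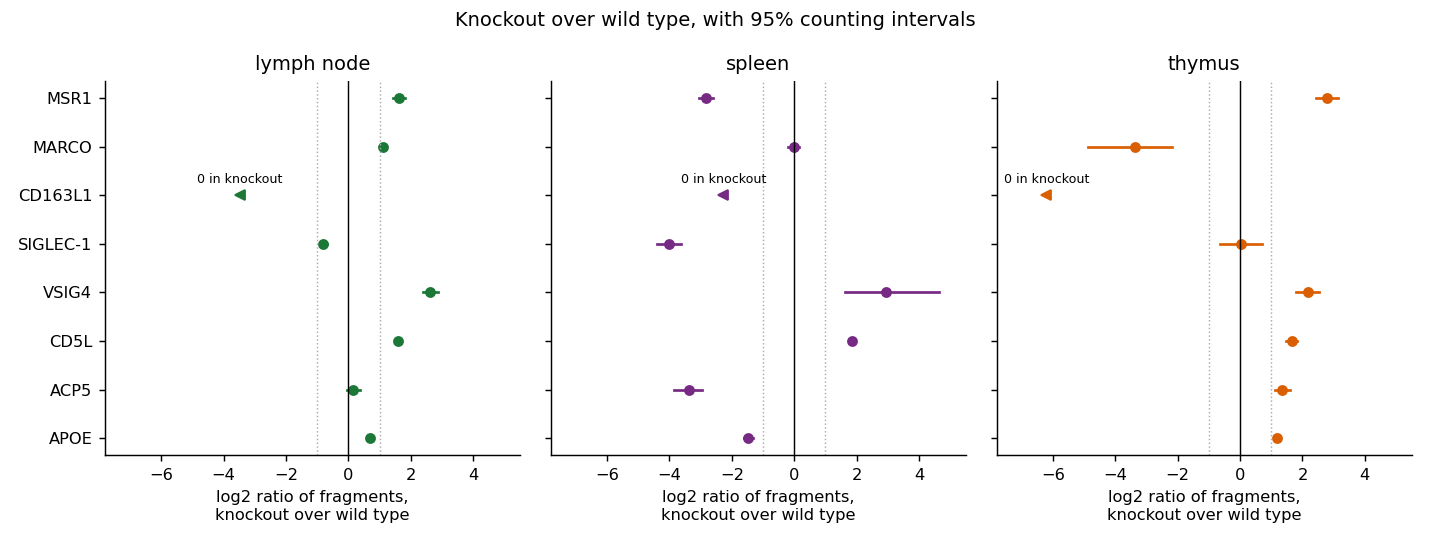
Log2 ratio of scaled fragments, knockout over wild type, for each gene and tissue (points), with 95% Clopper-Pearson counting intervals (bars, 1 library per genotype). Left-pointing triangles mark the upper end of the interval for CD163L1, which had 0 fragments in each knockout library, and dotted lines mark a log2 ratio of 1 in either direction. SIGLEC-1, ACP5, MSR1 and APOE lie to the left in spleen, with 16.01-fold, 10.5-fold, 7.06-fold and 2.76-fold lower levels.

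**Figure D3:**
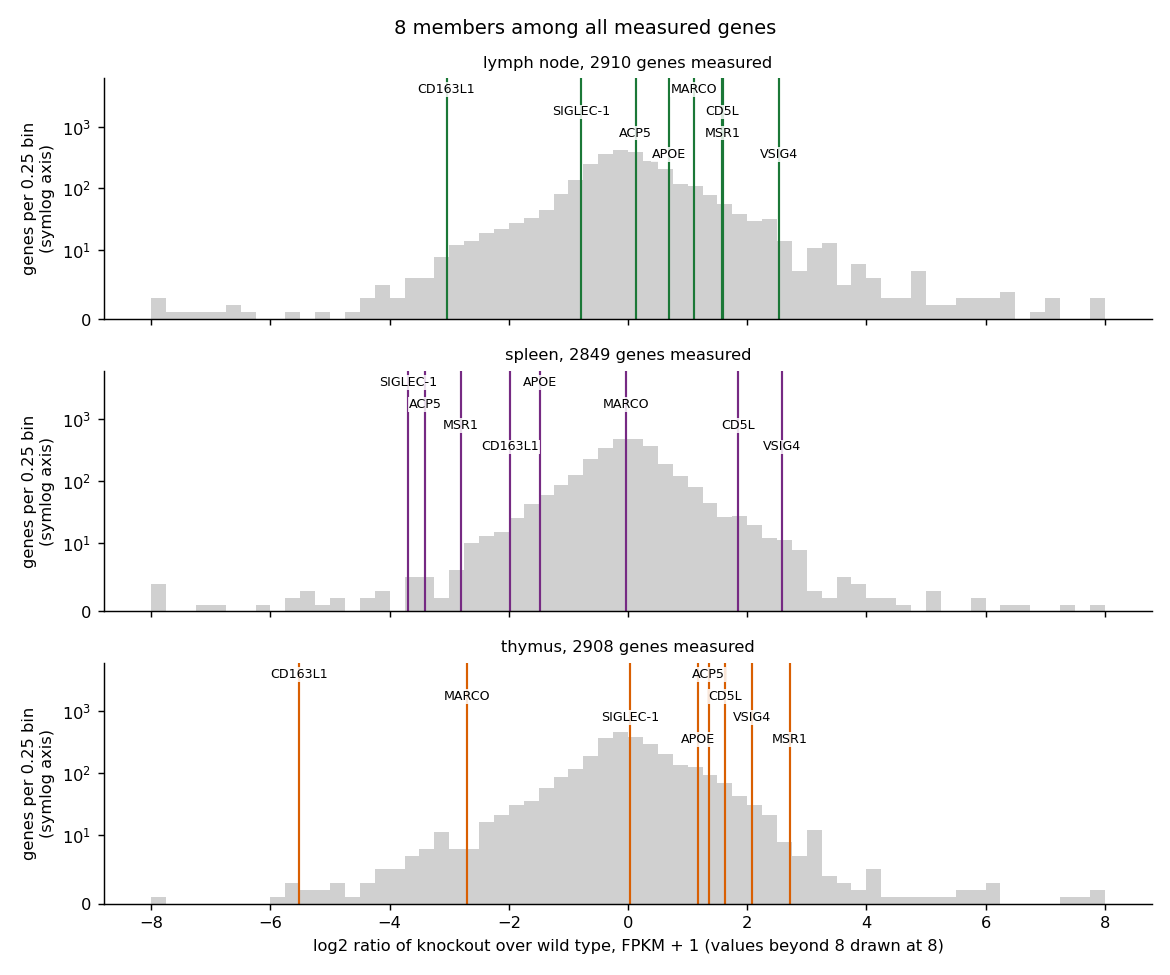
Histograms of log2 ratios, knockout over wild type (FPKM + 1), over all measured genes of each tissue, 2910, 2849 and 2908 genes, on a symlog count axis, with vertical lines at the 8 genes. In spleen SIGLEC-1 and ACP5 lie in the lower tail, at the 21st and 27th lowest places, and MARCO lies at the centre with a log2 ratio of -0.0272.

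The make-up of the group differed between libraries. The 8 genes summed to 1787.0 FPKM in the wild-type spleen and 1707 FPKM in that of the knockout, so their sum was near level while its parts were not. CD5L made up 20.4% of this sum in the wild-type spleen and 77.3% in that of the knockout. ACP5 went from 28.3 to 2.74%, MSR1 from 18.0 to 2.65% and SIGLEC-1 from 3.36 to 0.220%. The ratio of CD5L to MSR1 was 1.14 in the wild-type spleen and 29.2 in the knockout spleen. In lymph node that ratio was 1.96 and 1.93.

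The lymph node sum was 2464 FPKM in wild type and reached 4804 FPKM in the knockout, and MARCO held the greatest share of it in each library, 35.5 and 39.5%. VSIG4 went from 3.64 to 10.98% and SIGLEC-1 from 4.65 to 1.37%. In thymus the sum was 801.5 FPKM in wild type and reached 1966 FPKM in the knockout, with APOE (49.0 and 45.4%) and ACP5 (29.8 and 31.1%) as its main parts. CD163L1 was 5.62% of the wild-type thymus sum.

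**Figure D4:**
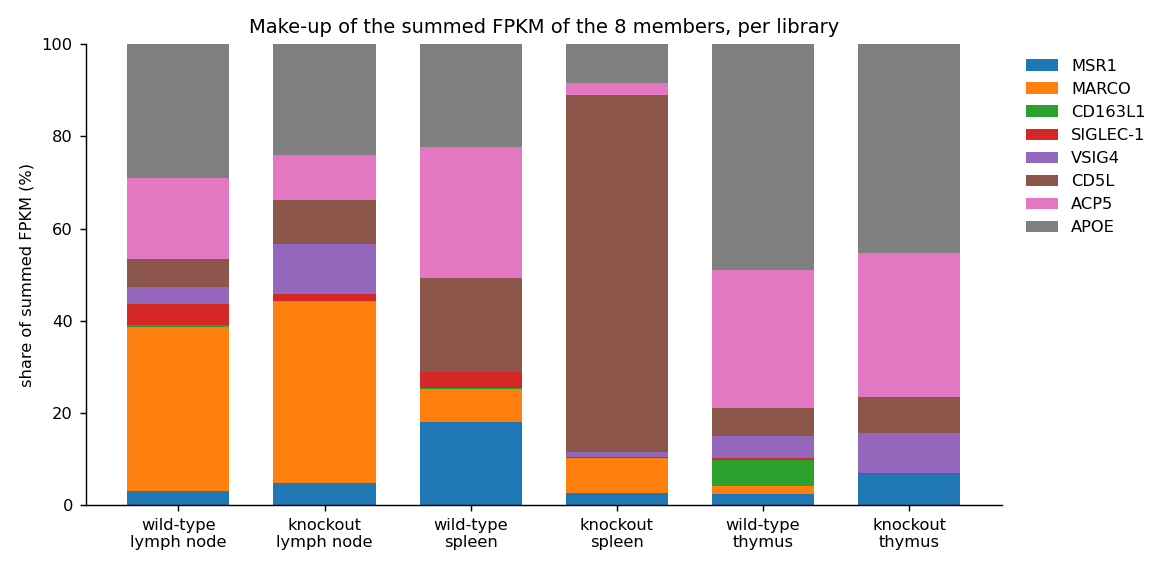
Share of each gene in the summed FPKM of the 8 genes, in percent, for each of the 6 libraries. CD5L takes 77.3% of the sum in the knockout spleen and at most 20.4% in any other library, while MARCO leads in the lymph node and APOE in the thymus libraries.

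Levels of the 8 genes were also compared between tissues within each genotype. The tables were normalised tissue by tissue, so levels set across them are descriptions. In wild type, 5 of the 8 genes differed by a log2 ratio of at least 1 between spleen and lymph node, 6 between thymus and lymph node and 7 between thymus and spleen, against 24.7, 41.8 and 50.1% of all genes measured. VSIG4 was 36.0-fold and MARCO 6.69-fold higher in lymph node than in spleen, whereas MSR1 was 4.13-fold and CD5L 2.40-fold higher in spleen. In the knockout, 7 of the 8 genes differed between spleen and lymph node, 4 between thymus and lymph node and 6 between thymus and spleen. The shares of all genes there were 30.2, 43.3 and 46.1%. CD163L1, at 0 FPKM in each knockout library, did not meet the minimum of 1 FPKM used for these shares. No result about the group is read from these counts. The order of spleen and lymph node turned for MSR1, which was 5.22-fold higher in the knockout lymph node than in the knockout spleen. It did not turn for CD5L, which was 2.89-fold higher in the knockout spleen. ACP5, at 1.18 times its lymph node level in the wild-type spleen, was 9.99-fold lower in the knockout spleen than in the knockout lymph node.

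Other macrophage genes, from a list of 19, give the frame for these levels. Among 11 measured members 1 was higher and 0 lower in lymph node (median log2 ratio 0.41), and 3 were higher and 0 lower in spleen (median 0.33). In thymus 10 were higher and 0 lower (median 1.31). Over all measured genes, 15.3% were called higher and 10.3% lower in lymph node, 8.88 and 10% in spleen, and 15.2 and 10.9% in thymus. These shares are also the background for the lists below. The complement subunit C1QA, made by macrophages, stood at 3174 and 4823 FPKM in lymph node, 11563 and 8154 FPKM in spleen and 342 and 736 FPKM in thymus. In spleen the called genes were the bacteriolytic enzyme LYZ (2.54), the endotoxin coreceptor CD14 (1.84) and the Fc receptor FCGR1A (0 and 10 fragments), which monocytes also express and, for LYZ, granulocytes. In lymph node the called gene was FCGR1A, on 0 and 10 fragments. In thymus LYZ (2.78), CD14 (2.28) and FCER1G (2.18) led. The hemoglobin receptor CD163, a defining marker, is listed at 0 in all 6 libraries, and CD68 and CSF1R were not analysed here. The protease CTSD and the signal transducer STAT2, which most cells use, are also listed at 0 throughout, so such a 0 may be a failed estimate and is not read as a level.

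The geometric mean of 10 members of that list, those with at least 1 FPKM in every library, was used as a measure of macrophage RNA within each library. It stood at 494 and 605 FPKM in lymph node, 678 and 1018 FPKM in spleen and 77.4 and 251 FPKM in thymus, and was 1.22-fold, 1.502-fold and 3.24-fold higher in the knockout. In spleen its genes went different ways. LYZ was 5.93-fold, CD14 3.67-fold, SPI1 1.93-fold and MRC1 1.69-fold higher, and TYROBP and FCER1G rose less. C1QA, C1QC, C1QB and AIF1 were at 0.715, 0.805, 0.938 and 0.949 of wild type. The list summed to 33113 and 27732 FPKM in spleen. In thymus all 10 were higher, from 2.08-fold (MRC1) and 2.15-fold (C1QA) to 5.17-fold (CD14) and 6.94-fold (LYZ). The spleen and thymus folds by this mean therefore depend on the genes chosen for it. Divided by this mean, SIGLEC-1 was 2.13-fold lower in the knockout lymph node, 24.1-fold in spleen and 3.15-fold in thymus. The thymus value comes from the mean, 3.24-fold higher there, since SIGLEC-1 itself was at 2.47 and 2.54 FPKM (38 and 40 fragments). In spleen MSR1 was 10.7-fold, ACP5 16.2-fold and APOE 4.19-fold lower by this ratio. CD5L was 2.45-fold and 2.41-fold higher in lymph node and spleen by this ratio, and in thymus it was at 0.972 of the wild-type value.

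In thymus, ACP5 and APOE, which were higher by level, were at 0.790 and 0.701 of their wild-type ratio to the 10 genes. VSIG4 was at 1.34 times and MSR1 at 2.11 times its wild-type ratio there. MARCO was 33.8-fold lower by this ratio, on 6 fragments in the knockout. By this ratio, which leaves out CD163L1, 3 of 7 genes were higher by at least 1 on the log2 scale and 1 lower in lymph node, 2 higher and 4 lower in spleen, and 1 higher and 2 lower in thymus. The same rule called 11.1% of all genes higher and 17.1% lower in lymph node, 4.74 and 26.1% in spleen, and 2.64 and 77.8% in thymus. With MRC1 alone as the reference, 1 gene instead of 3 was higher in lymph node (7.62% of all genes) and 1 instead of 2 in spleen (3.11%), and with AIF1 alone 0 instead of 1 in thymus (2.35%). These single-gene references were chosen after seeing the data.

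**Figure D5:**
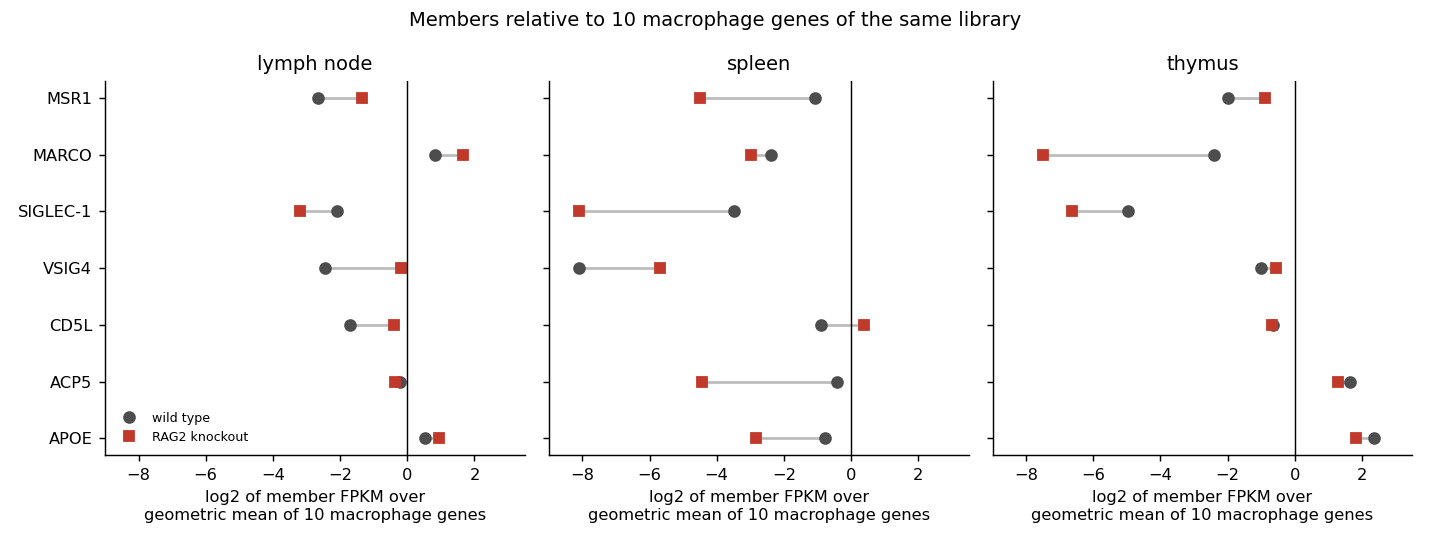
Log2 of each gene's FPKM over the geometric mean FPKM of 10 macrophage genes of the same library, in wild type (circles) and RAG2 knockout (squares), 1 library per point. In spleen SIGLEC-1, ACP5, MSR1 and APOE lie 24.1-fold, 16.2-fold, 10.7-fold and 4.19-fold lower in the knockout, while CD5L and VSIG4 lie higher. CD163L1 is left out because it had 0 fragments in each knockout library.

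Genes with the nearest pattern were found by the root mean square difference of log2(FPKM + 1) over the 6 libraries, each gene centred on its own mean, among 2803 genes with at least 5 FPKM in 1 library. CD5L had the closest neighbour: the secreted protease inhibitor family gene WFDC1 (0.276 log2 units), followed by the interferon-induced GTPase MX2 (0.347) and the amyloid precursor APP (0.404). APOE was nearest to MMD (0.306), the mitochondrial ferredoxin FDX1 (0.366) and the peptidase DPP4 (0.382). ACP5 was nearest to HCST (0.585), APOE (0.612) and FDX1 (0.735), the one case in which a member was among the 3 nearest of another.

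MSR1 was nearest to ITIH4 (0.533, at 11.1 FPKM or less), SGCE (0.650) and the stem cell factor receptor KIT (0.738). SIGLEC-1 was nearest to THY1 (0.640), CPE (0.686) and GPR1 (0.729), and each of these was lower in the knockout spleen. THY1, a surface protein of stromal and neural cells, stood at 910.3 FPKM in the wild-type spleen and 119 FPKM in that of the knockout. CD163L1 was nearest to CD28 (0.419), CD8A (0.481) and CD27 (0.785).

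MARCO and VSIG4 had no close neighbours. For MARCO the 3 nearest were CCL21 (1.23), IL33 (1.25) and the collagen COL5A1 (1.34), all highest in lymph node. For VSIG4 they were SLC1A3 (0.953), CAMK1G (1.04) and ENPEP (1.09). These distances rest on 6 libraries that share tissues and perhaps animals.

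The signals that place and maintain macrophages were mixed. Of 9 listed genes, 2 were higher and 2 lower of 8 measured in lymph node (median 0.37), 0 higher and 3 lower of 7 in spleen (median -0.97), and 2 higher and 2 lower of 8 in thymus (median 0.31). LTB, a lymphotoxin subunit made by lymphocytes that maintains marginal zone and sinus macrophages, was lower in each tissue: 968 and 112 FPKM in lymph node, 327 and 44.15 FPKM in spleen and 286 and 20.6 FPKM in thymus. Its partner LTA was also called lower in each, on 26 and 5, 11 and 0, and 9 and 0 fragments. The receptor LTBR was called higher in lymph node (58.7 and 130.03 FPKM) and thymus (15.0 and 50.3 FPKM). The other higher call in both was CSF2, on 0 and 6 fragments in lymph node and 0 and 2 in thymus. The macrophage growth factor CSF1 stood at 66.0 and 43.5 FPKM in lymph node, 211 and 156 FPKM in spleen and 5.57 and 12.1 FPKM in thymus. It was short of a call in each, with the thymus log2 ratio of 0.999 just under the threshold. IL34, which shares its receptor, was called lower in spleen, at 18 and 8 fragments. In lymph node it had 9 and 20 fragments, a log2 ratio of 0.998 just short of a call in the other direction, and in thymus 12 and 11.

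Among other scavenger receptors and relatives, 3 of 10 were higher and 2 lower in lymph node, 2 higher and 1 lower in spleen, and 5 higher and 3 lower in thymus, with medians of 0.77, 0.53 and 0.75. The higher calls in spleen were CLEC7A on 0 and 3 fragments and AGER on 1 and 9. CLEC7A was also called in lymph node, on 0 and 2 fragments. With an interval that excludes equal levels, 2 were higher in lymph node, 1 in spleen and 5 in thymus. The fatty acid and lipoprotein receptor CD36 stood at 260.2 and 1920 FPKM in lymph node, 279 and 262 FPKM in spleen and 49.0 and 321 FPKM in thymus. The oxidised lipoprotein receptor OLR1 had log2 ratios of 2.12, -0.0411 and 2.19, on few fragments: 5 and 37, 22 and 25, and 4 and 34. CD36 is also a fat-cell and endothelial gene. The T-cell protein CD5, which shares the cysteine-rich fold, was called lower in all 3 tissues (-3.79, -2.26 and -2.45). The mannose receptor MRC1 stood at 770 and 1271 FPKM in lymph node, 31.35 and 60.3 FPKM in spleen and 36.1 and 78.6 FPKM in thymus, and its log2 ratio of 1.10 was a call in thymus.

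Genes of cholesterol efflux and liver X receptor targets, the group to which APOE and CD5L are related, were called in few cases. Of 6 measured, 1 was higher and 2 lower in lymph node (median 0.50), 0 were called in spleen (median 0.12) and 2 were lower in thymus (median -0.0764). The receptor gene NR1H3 itself stood at 121 and 228 FPKM in lymph node, 759 and 859 FPKM in spleen and 53.0 and 99.96 FPKM in thymus, short of a call in each. Lipoprotein lipase LPL was higher in lymph node (73.3 and 773 FPKM) and is also a fat-cell gene.

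Of lysosomal and osteoclast genes, 3 of 13 measured were higher and 1 lower in lymph node (median 0.46), 3 of 12 higher and 0 lower in spleen (median 0.45), and 7 of 13 higher and 0 lower in thymus (median 1.36). In spleen, where ACP5 was 10.5-fold lower, the bone-resorbing protease CTSK was at 173 and 88.2 FPKM (log2 ratio -0.97, short of a call) and the lysosomal lipase LIPA at 583 and 549 FPKM. The spleen calls included MITF on 1 and 8 fragments and MMP9 (1.97). In thymus the acid phosphatase ACP2 (1.73) and the protease CTSZ (1.55) were among the higher genes. GPNMB was called in lymph node and thymus on 0 and 4 fragments each, which gave FPKM values of 36941 and 40907, so its level is not interpretable.

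In the iron-handling and red pulp list, 3 of 6 were higher and 1 was lower in lymph node (median 0.96). They were higher in 3 of 6 and lower in 0 in spleen (0.91), and higher in 2 of 6 and lower in 0 in thymus (0.93). Among the higher genes, SLC11A1 had only 2 and 5 fragments in lymph node and 0 and 4 in thymus. The ferritin genes FTH1 (5273 and 29040.1 FPKM) and FTL (10766 and 36051 FPKM) and the metal transporter SLC11A1 (116 and 345 FPKM) were the higher genes in spleen. VCAM1, an adhesion molecule of red pulp macrophages and stroma, was at 4399 and 4635 FPKM there. HMOX1, a defining red pulp gene, is listed at 0 in all 6 libraries, with the same doubt as for CD163. Complement receptor and regulator genes were lower in 2 of 6 cases in lymph node (median -0.42; CD55 -2.11, CD46 on 3 and 1 fragments). In spleen 1 was higher, C3, and 1 lower (median 0.43). In thymus 2 were higher, C5AR1 at 1.27 and CD46 on 1 and 5 fragments (median 0.31).

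Markers of other cells moved in the same libraries. T-cell genes summed to 1827 and 225 FPKM in lymph node, 750.3 and 407 FPKM in spleen and 8757 and 4161 FPKM in thymus. B-cell genes were lower in 5 of 5 cases in lymph node (1585 and 4.50 FPKM summed), 5 of 5 in spleen (540.5 and 6.63 FPKM) and 3 of 5 in thymus (156 and 186 FPKM). Most of the thymus sum was CD79A, which was higher without a call there (120 and 172 FPKM, from 180 and 265 fragments). Medians of the B-cell list were -6.94, -5.49 and -1.34, and those of the T-cell list -3.70, -0.69 and -1.28. Neutrophil genes were higher in 6 of 7, 9 of 9 and 8 of 9 cases, with sums of 44.0 and 557, 60.5 and 1861, and 163 and 3093 FPKM. MMP9 was lower in lymph node. At 0 in the wild-type lymph node were PMAP-23, PMAP-36, PR39 and NPG1, the last also in the knockout. The part of these cells in the values of the 8 genes was not tested.

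Fat-cell and blood genes were higher in 11 of 11 cases in the knockout lymph node, with sums of 559 and 16358 FPKM, and in 9 of 10 in the knockout thymus (1431 and 6669 FPKM). In spleen 1 of 9 was higher and 3 were lower (41731 and 19302 FPKM). The red-cell gene HBB made up most of this spleen sum, at 41406 and 18970.2 FPKM. HBB was at 376 and 6738 FPKM in lymph node and at 912 and 4782 FPKM in thymus. The hormone ADIPOQ stood at 27.2 and 7483 FPKM in lymph node and 156 and 1376 FPKM in thymus, and DGAT2 and PCK1 had 0 fragments in the wild-type lymph node. The lymph node and thymus are the tissues in which MSR1, CD5L and VSIG4 were all called higher, and APOE is also expressed in fat. CD5L and VSIG4 were higher in spleen as well, where ADIPOQ was at 10.5 and 5.20 FPKM. The part of fat or blood in the lymph node and thymus values was not tested.

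Of 6 endothelial and sinus genes, 3 were higher and 1 lower in lymph node (median 1.004), lower in 1 of 6 in spleen (median 0.28) and higher in 5 of 5 in thymus (median 1.29). The lower gene in lymph node and spleen was CLEC4G, a lectin of sinus endothelium, at 2005 and 427 FPKM in lymph node and 30.7 and 1.55 FPKM in spleen (67 and 4 fragments). SIGLEC-1 was lower in the same 2 tissues, without a call in lymph node. Dendritic cell genes were lower in 1 of 4 cases in lymph node, CCR7 at -1.59 (median -0.0259). They were higher in 2 and lower in 1 of 4 in spleen (median 0.80, FSCN1 at 1.56). In thymus 2 were higher and 2 lower (median -0.48, CCR7 at -4.43 and XCR1 at 2.12). Which cells carried CCR7 was not tested.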

How the data were processed

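RNA sequencing of 3 tissues from knockout and wild-type pigs gave 6 libraries, 1 per tissue and genotype. Per the submitters' processing notes FastQC 0.11.9, Trimmomatic 0.39, STAR 2.7.9a, Cufflinks 2.2.1 and the build Sscrofa11.1 were used; the sources used here give no order, annotation or strand setting. FPKM values were deposited by the authors per tissue. The deposited estimated counts carry 1 factor per library: 97.0 to 99.2% of values above 0 came out whole (tolerance 0.02) when divided by the commonest value, and the quotients were rounded to fragments. The lists of members and genes were chosen with earlier results of these data known. Comparisons are log2 ratios of FPKM plus 1, with no test across genes, and calculations were tested on simulated counts. Lists for 14 cell types and pathways were matched through RefSeq synonyms. Named genes are the 8 members, up to 3 called genes per list and tissue with the largest ratio, the 3 nearest in pattern per member, and the targeted gene. Chosen after their values were seen were C1QA, the other genes of the 10-gene mean, MRC1, NR1H3, CSF1, CTSK and LIPA. So were VCAM1, ADIPOQ, CCL21, HBB, RAG-1, MX1, MMP9 and CD79A, values short of a call and genes at 0. Alternatives were counts scaled to their total, TMM (edgeR 4.0.16) or DESeq2 1.42.0 size factors, pseudocounts of 0.1 and 5, no minimum, minimums of 5 FPKM or 10 fragments, median centring, a threshold of 2 and the counting interval. Python 3.11.15, numpy 2.4.6, pandas 2.3.3, scipy 1.17.1, matplotlib 3.10.9 and R 4.3.3 were used. Planned protein and promoter descriptions were not made. Some genes that the rule named are left out here.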

Additional observations from a re-analysis of the deposited data

Results flagged for a closer look

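Of the 8 genes, 4 were called in opposite directions in a pair of tissues, against 4.46% of the genes measured in all 3; the genes were chosen with these ratios known, so nothing is read from this. Each direction rests on 1 library per genotype, and the difference between tissues was not tested. For MSR1 the log2 ratio between the genotypes was 4.39 greater in lymph node than in spleen, and the spleen minus thymus difference was -5.51. For MARCO the lymph node minus thymus difference was 3.81, with 6 fragments in the knockout thymus. For ACP5 and APOE the spleen minus thymus differences were -4.76 and -2.66. In 4 of these 5 pairs spleen was the tissue in which the knockout was lower.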

How the results depend on the processing

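Each tissue and genotype holds 1 library and the labels carry no replicate numbers, so no pairing by replicate could be made and no library could be left out within a tissue. A fit of genotype over the 3 tissues, with tissue as a block, was not made, because the genes were chosen on these same ratios. Over 11 alternatives, 252 of 262 log2 ratios of the 8 genes kept their direction and side of the threshold, 10 fell below it and 0 reversed. CD163L1 in spleen and SIGLEC-1 in thymus did not meet the minimum of 5 FPKM and have no value under it. The lower call of CD163L1 in spleen was thus lost there, which is not counted among the 10. Of the 10, 9 came from the threshold of 2. Under it the genes called higher numbered 1 in lymph node, 1 in spleen and 2 in thymus, against 5.6, 2.77 and 3.78% of all measured genes. Those called lower in spleen numbered 3, against 2.67%. The lower calls of CD163L1 in lymph node and thymus and of MARCO in thymus stayed. The other of the 10 was CD163L1 in spleen, at -0.67 with a pseudocount of 5. That pseudocount also brought MARCO in thymus to -1.61, VSIG4 in spleen to 1.73 and SIGLEC-1 in spleen to -2.90, since these rest on low FPKM. Counts of called genes over the 14 lists stayed within 1.5 times in 840 of 924 cases. Relative to macrophage genes, the higher genes numbered 1 in lymph node and 1 in spleen with MRC1 as the reference and 0 in thymus with AIF1; references of CD68 or CSF1R alone were not run. Depth limits VSIG4 in the wild-type spleen (5 fragments), MARCO in the knockout thymus (6) and CD163L1 in the knockout libraries (0).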
